A study of Homo sapiens with 12 samples.

Results

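The genes described here are 42 genes of the NF-kB system and its cytokines, chemokines and adhesion molecules, chosen by name. Of these, 36 were among the 15601 genes of the table that holds all 12 libraries, and 13 of the 36 were called as different between groups in at least 1 of 4 comparisons, where 16.1% of all genes were called in at least 1. The genes not listed there were IL1A, CSF2, TNF, PTGS2, LCN2 and SAA1, which were not in the tables of single pairs of groups either. RNA was sequenced from the 3' end (QuantSeq) in SNU449, a mesenchymal-like human hepatocellular carcinoma line. The 4 groups of 3 libraries each were control (naïve) SNU449, SNU449 resistant to regorafenib (Rego), control SNU449-Axl- cells, in which the receptor tyrosine kinase Axl was removed with CRISPR/Cas9, and SNU449-Axl- cells resistant to Rego. Resistant cells had been adapted in steps up to 2 times the IC50 and received Rego again after each passage, so that resistance and ongoing exposure cannot be told apart. The 3 libraries of a group are technical triplicates of 1 cell population, and p-values therefore measure only the spread between such libraries. Whether the SNU449-Axl- cells came from 1 clone is not given in the sources used here.

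NF-kB is a family of dimeric transcription factors that inhibitor proteins of the IkB family hold in the cytoplasm. Signals from tumour necrosis factor, interleukin-1 or Toll-like receptors lead to breakdown of the inhibitors, and the dimers then switch on chemokines, cytokines, adhesion molecules and their own inhibitors. In the liver this system is known for its part in inflammation and in hepatocyte survival, and tumour cells can carry it in an active state.

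Several of the genes carry an NF-kB consensus sequence close to their start. RefSeq promoter windows (GRCh38.p14, 250 bases before to 50 after the start) were at hand for 32 of the 42 genes, and 19 of them (59.4%) held the consensus on either strand, against 3619 of 27305 genes (13.3%) with a window. The share was 66.7% both among members that were called in a comparison (6 of 9) and among those tested and not called (12 of 18). The stretches below are those of members whose levels differed between groups, with 2 close chemokine relatives. They are written 5' to 3' on the strand of the gene, and capitals mark the match to the consensus, including matches on both strands that overlap. A match is a description of letters and not a measured binding site.
VCAM1: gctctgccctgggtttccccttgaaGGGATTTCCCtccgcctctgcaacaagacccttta
CXCL1: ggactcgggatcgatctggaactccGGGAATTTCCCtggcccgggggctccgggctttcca
CXCL3: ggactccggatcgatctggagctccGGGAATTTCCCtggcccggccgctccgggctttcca
CXCL5: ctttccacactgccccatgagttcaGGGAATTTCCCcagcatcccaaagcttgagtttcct
CXCL6: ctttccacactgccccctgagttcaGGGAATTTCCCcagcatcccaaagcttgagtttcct
CCL20: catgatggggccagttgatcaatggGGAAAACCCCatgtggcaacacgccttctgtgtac
NFKBIA: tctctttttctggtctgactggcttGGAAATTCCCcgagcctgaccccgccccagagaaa
BIRC3: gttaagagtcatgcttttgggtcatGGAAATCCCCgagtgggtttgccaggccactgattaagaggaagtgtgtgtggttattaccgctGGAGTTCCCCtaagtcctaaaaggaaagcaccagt

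The VCAM1 stretch lies at chr1:100719655-100719714 on the plus strand, with the match from -62 to -53 relative to the start. The CXC chemokines shown lie on chromosome 4, CXCL6 at chr4:73836563-73836623 and CXCL1 at chr4:73869289-73869349 on the plus strand, CXCL5 at chr4:73998733-73998793 and CXCL3 at chr4:74038733-74038793 on the minus strand. The CXCL5 and CXCL6 stretches differed at 1 of 61 bases and those of CXCL1 and CXCL3 at 4 of 61. CXCL5 was called in all 4 comparisons and CXCL6 in none, but CXCL6 had almost no reads (mean normalized count 1.98). With loss of Axl in control cells, CXCL6 had a log2 fold change of 0.59 that narrowly missed the threshold (SE 0.178, limma adjusted p = 0.0518). The CCL20 stretch lies at chr2:227813738-227813797 (plus strand), that of NFKBIA at chr14:35404796-35404855 (minus strand) and that of BIRC3, with 2 matches, at chr11:102317260-102317383 (plus strand).

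The values per library are those that the authors deposited, 2 raised to a variance-stabilized and batch-corrected level, and not read counts. They do not fall to 0 for silent genes. Over the genes and groups whose mean normalized count was under 0.1, the library values had a median of 22 and lay mostly between 19 and 31.9 (5th and 95th percentile), so that values in the twenties stand for almost no reads and fold changes of low genes are understated. Log2 fold changes below are on the log2(value + 1) scale from limma fitted to all 15601 genes, with the replicate number as a block, and a gene is called at a Benjamini-Hochberg adjusted p under 0.05. In bulk RNA, fewer expressing cells and less RNA per cell cannot be told apart. The 4 comparisons share groups, so each is given by its own values. In each of them, the groups compared did not overlap for 27.9% to 29.1% of all genes and 36.1% to 47.2% of the members. Groups without overlap are therefore common.

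AXL itself followed the labels, with library values of 715 to 941 in control SNU449 and 815 to 1271 in resistant SNU449, against 33 to 53 and 38 to 52 in the SNU449-Axl- groups. Of 10 hepatocyte markers 3 were listed (AFP, APOA1, FGB), and ALB was not. All 5 mesenchymal markers were listed, led by VIM. Of 8 leukocyte markers 5 were listed, with mean normalized counts of 6.19 at most, and none of 5 endothelial markers was. Libraries within a group did not deviate alike for these genes. Replicate 1 of control SNU449-Axl- held the highest value of its group for 23 of 36 members (63.9%, against 36.9% of all genes), and replicate 2 of resistant SNU449-Axl- for 21 (58.3%, against 35.7%).

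**Figure D1:**
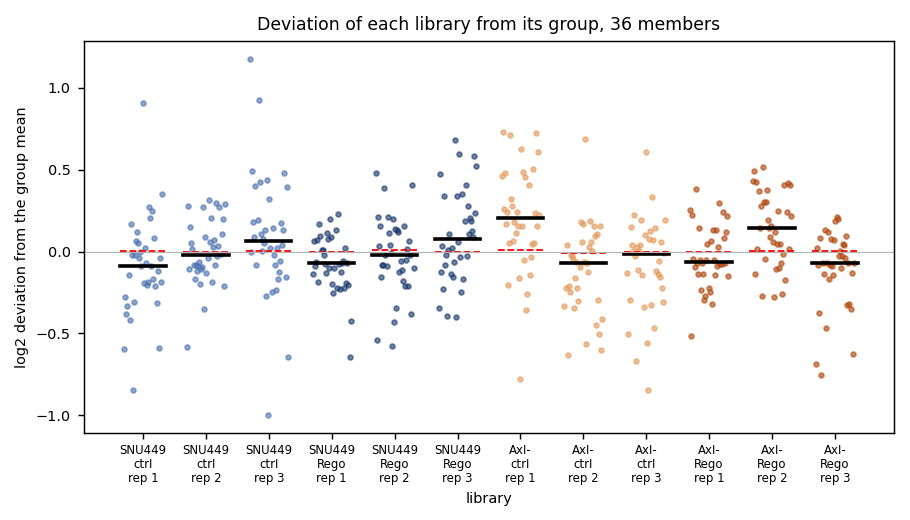
Deviation of each of the 12 libraries from the mean of its group on the log2(value + 1) scale, with 1 point per member (36), the median of the members as a black bar and the median of all genes as a dashed red line. Replicate 1 of control SNU449-Axl- had a median deviation of 0.202 and replicate 2 of resistant SNU449-Axl- of 0.143, while the medians of all genes lay close to 0.

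The largest change among the members was that of VCAM1, an adhesion molecule first described on endothelium that binds leukocyte integrin VLA-4. Control SNU449 libraries held VCAM1 values of 550, 556 and 1886. Resistant SNU449 libraries held 44, 68 and 38, control SNU449-Axl- libraries 58, 33 and 38, and resistant SNU449-Axl- libraries 174, 197 and 90. The control SNU449 libraries were far above all others, the third of them highest, and resistant SNU449-Axl- cells lay between them and the other two groups without overlap. On the scale of the library values, VCAM1 was 16.8-fold lower in resistant than in control SNU449 (log2 fold change -4.07, SE 0.398, limma adjusted p = 3e-06). This was the second largest fall of all genes. The resistant values lay near the level of almost no reads, so the fold is understated. Mean normalized counts solved per group (below) were 1150 in control and 13.1 in resistant SNU449. In SNU449-Axl- cells VCAM1 moved the other way with resistance, with a log2 fold change of 1.78 (SE 0.398, limma adjusted p = 0.015). Loss of Axl gave the same pair of directions, a log2 fold change of -4.28 in control cells (limma adjusted p = 2.72e-06) and of 1.57 in resistant cells (limma adjusted p = 0.0304). The difference of the Rego effect between backgrounds was 5.85 (SE 0.563, limma adjusted p = 8.82e-06), the highest interaction of all 15601 genes. Both falls and the interaction kept their call in every alternative, but their size rested in part on replicate 3 of control SNU449, the highest library. Without it the log2 fold changes were -3.29 and -3.50 and the interaction was 5.07. In the table of the single pair, the rise with resistance in SNU449-Axl- was 1.15 on the log2 scale and was called. The rise with resistance in SNU449-Axl- lost it without replicate 2 or 3 of the control or replicate 1 or 2 of the resistant libraries, with log2 fold changes of 1.49 to 1.69. The rise with loss of Axl in resistant cells lost it without replicate 1 or 3 of resistant SNU449 or replicate 1 or 2 of resistant SNU449-Axl-, with 1.28 to 1.48. FN1, the fibronectin gene listed as a mesenchymal marker, showed the same signs, with log2 fold changes of -2.24 and 2.47 for resistance in SNU449 and SNU449-Axl- and of -2.25 and 2.46 for loss of Axl in control and resistant cells. In each comparison FN1 was the only 1 of the 5 mesenchymal markers called. Changes were below 0 for 3, 3, 4 and 4 of the 5 in the same order, so the rises of FN1 were not those of the list.

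ICAM1, the adhesion molecule that binds the leukocyte integrin LFA-1, had values of 61, 90 and 74 in control SNU449 and of 162, 106 and 215 in resistant SNU449. These groups did not overlap, which held for 27.9% of all genes in this comparison. The log2 fold change of 1.05 missed the threshold (SE 0.322, limma adjusted p = 0.0529). In the other 3 comparisons it lay between -0.50 and 0.32.

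**Figure D2:**
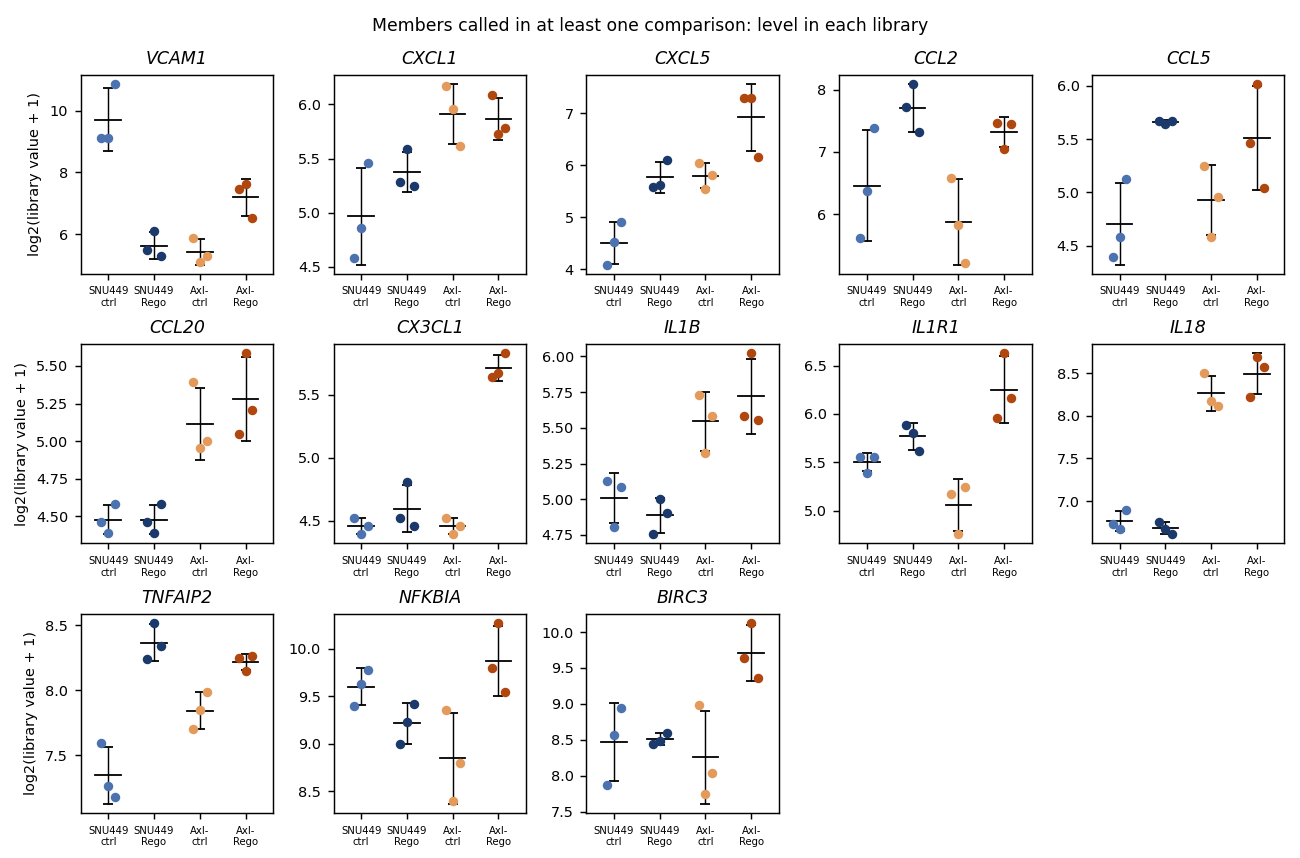
Levels of the 13 members called in at least 1 comparison, as log2(library value + 1) on the y axis, with 1 point per library, the mean of each group of 3 as a bar and its SD as the error bar. VCAM1 was highest in control SNU449, whereas IL18 and CCL20 were higher in both SNU449-Axl- groups and CX3CL1 only in resistant SNU449-Axl- cells.

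Across the members, resistance to Rego in SNU449 was called for 5 of 36 genes (13.9%), 4 higher and 1 lower, where 7.81% of all genes were called. The median log2 fold change of the members was 0.06, and that of all genes was close to 0. In SNU449-Axl- cells, 7 of 36 members (19.4%) were called, all higher, where 4.35% of all genes were called, with a median of 0.22. The members were chosen with earlier results known, so these shares are a description of the list.

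**Figure D3:**
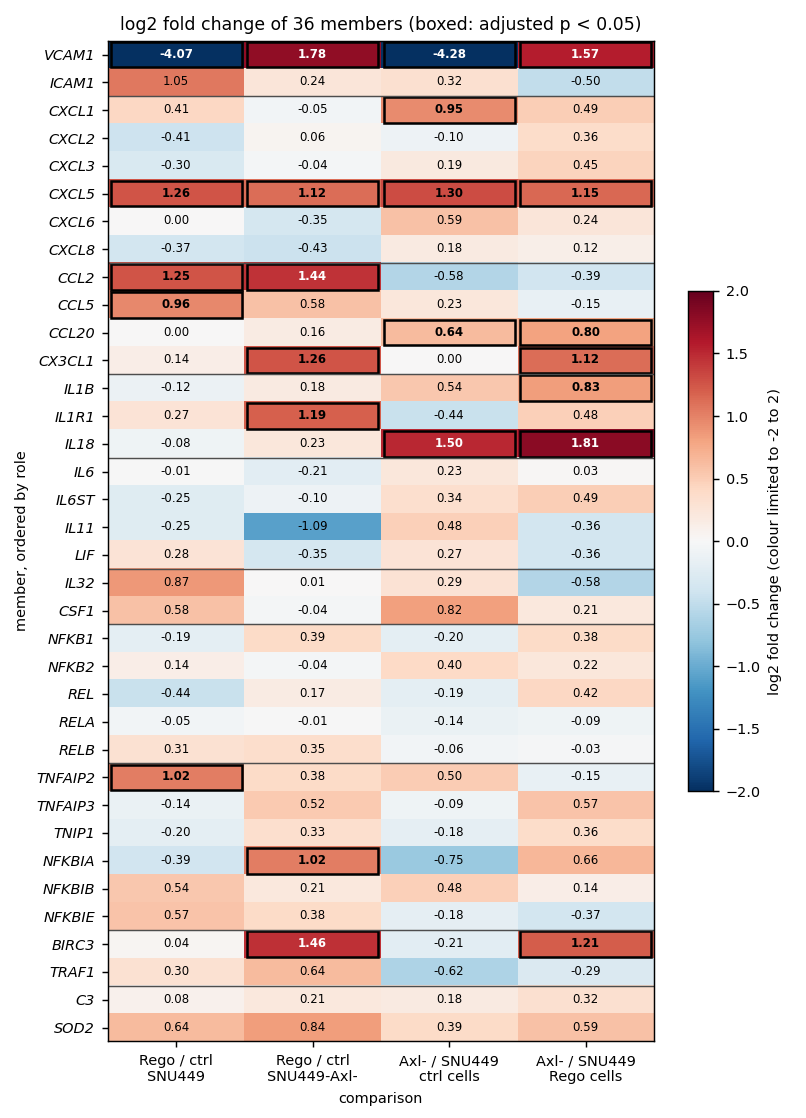
Log2 fold changes of the 36 members (rows, ordered by role) in the 4 comparisons (columns), in colour and digits, with boxes around those called at a limma adjusted p under 0.05. Of 24 boxed changes 22 are rises, and the 2 falls are those of VCAM1.

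Among the CXC chemokines, which attract neutrophils, CXCL5 was called in all 4 comparisons. Its values were 16, 22 and 29 in control SNU449, 47, 48 and 68 in resistant SNU449, 65, 46 and 55 in control SNU449-Axl-, and 157, 156 and 71 in resistant SNU449-Axl-. Control SNU449 was at the level of almost no reads, and the resistant SNU449-Axl- libraries were the highest, 2 of them well above the third. CXCL5 rose with resistance by a log2 fold change of 1.26 in SNU449 (SE 0.289, limma adjusted p = 0.0101) and of 1.12 in SNU449-Axl- (SE 0.289, limma adjusted p = 0.0342). It rose with loss of Axl by 1.30 on the log2 scale in control cells (limma adjusted p = 0.00913) and by 1.15 in resistant cells (limma adjusted p = 0.0283). The difference of the Rego effect between backgrounds was not called (interaction -0.14, SE 0.409). The rise in SNU449 starts from almost no reads and is understated, so this interaction cannot show that the changes were equal. Mean normalized counts solved per group (below) were 0.161 and 23.4 in control and resistant SNU449, and 31.6 and 125 in SNU449-Axl-. The calls for SNU449 and for loss of Axl in control cells were lost without replicate 1 of control SNU449, with log2 fold changes of 0.98 and 1.01, and the former also without replicate 3 of resistant SNU449, with 1.04. The calls for SNU449-Axl- (without replicate 2 or 3 of the control libraries) and for loss of Axl in resistant cells (without replicate 1 or 2 of resistant SNU449) were lost as well, and both were lost without replicate 1 or 2 of resistant SNU449-Axl-, with 0.87 to 1.13 and 0.90 to 1.05. CXCL1 was called only for loss of Axl in control cells (log2 fold change 0.95, SE 0.233, limma adjusted p = 0.017), a call lost without replicate 1 or 2 of either control group (0.69 to 0.92). In the table of that pair of groups, with the replicate block, it was lost as well (0.72, limma adjusted p = 0.0762). CXCL2, CXCL3, CXCL6 and CXCL8 were not called in any comparison, with log2 fold changes between -0.43 and 0.59, and their mean normalized counts were 11.3, 9.56, 1.98 and 3.77.

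Of the CC and CX3C chemokines, CCL2, the monocyte chemoattractant, was higher in resistant cells of both backgrounds. Its values were 48, 82 and 166 in control SNU449 and 209, 272 and 158 in resistant SNU449, which overlap in 1 library each. In SNU449-Axl- cells they were 95, 56 and 36 in control and 175, 131 and 174 in resistant libraries, without overlap. The log2 fold changes were 1.25 in SNU449 (SE 0.371, limma adjusted p = 0.0459) and 1.44 in SNU449-Axl- (SE 0.371, limma adjusted p = 0.0334). The call in SNU449 was lost in 11 of 22 alternatives, with log2 fold changes of 0.68 to 1.87 over all of them, and 8 of these left out 1 library. Without replicate 3 of control SNU449, the highest of its group, it was 1.87 and was called. The call in SNU449-Axl- was lost without replicate 2 or 3 of the control or without any 1 of the resistant libraries of that background (1.0 to 1.62).

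CX3CL1, a membrane-bound chemokine also called fractalkine, was raised in a single group. It had values of 20 to 22 in both control groups and of 22, 27 and 21 in resistant SNU449, which stand for almost no reads, and of 49, 50 and 56 in resistant SNU449-Axl-. It rose with resistance in SNU449-Axl- (log2 fold change 1.26, SE 0.169, limma adjusted p = 0.000244), and it rose with loss of Axl in resistant cells (1.12, limma adjusted p = 0.000608). The interaction was 1.12 (SE 0.239, limma adjusted p = 0.00885), and all 3 calls held in the alternatives in which the gene was tested. The filter on a mean normalized count of at least 10 left it out. The mean normalized count over the 12 libraries was 6.05, so the change concerns a weakly expressed gene. CX3CL1 was listed for 3 of the 6 pairs of groups, and not for the pair of SNU449 groups or of control groups. It thus passed the authors' filter on low genes through resistant SNU449-Axl- libraries, where it is high. Its 3 calls rest on that selection and only describe this group.

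CCL5, a T cell chemoattractant, was higher in resistant SNU449 (log2 fold change 0.96, SE 0.252, limma adjusted p = 0.0236). That call was lost without replicate 1 or 2 of control SNU449 or without any 1 of the resistant SNU449 libraries (0.76 to 0.98). In SNU449-Axl- cells its change was 0.58 and was not called. The difference between the backgrounds was not called either (interaction -0.38, SE 0.357, limma adjusted p = 0.623). The mean normalized count of CCL5 solved for control SNU449 was 1.14, almost no reads, so the rise there is understated. CCL20, the ligand of CCR6, was higher after loss of Axl in control cells (0.64, SE 0.190, limma adjusted p = 0.0492) and in resistant cells (0.80, SE 0.190, limma adjusted p = 0.0211). Its values were 20 to 23 in both SNU449 groups, which stand for almost no reads. The mean normalized count of CCL20 was 4.53, with solved means of 7.32 and 11.1 in control and resistant SNU449-Axl-. These changes also concern a weakly expressed gene, which the filter on a mean normalized count of at least 10 left out. The first of these calls was lost in 15 of 21 alternatives, 11 of which left out 1 library (0.45 to 0.74). The second was lost without replicate 1 or 2 of resistant SNU449 or replicate 2 or 3 of resistant SNU449-Axl- (0.59 to 0.85).

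**Figure D4:**
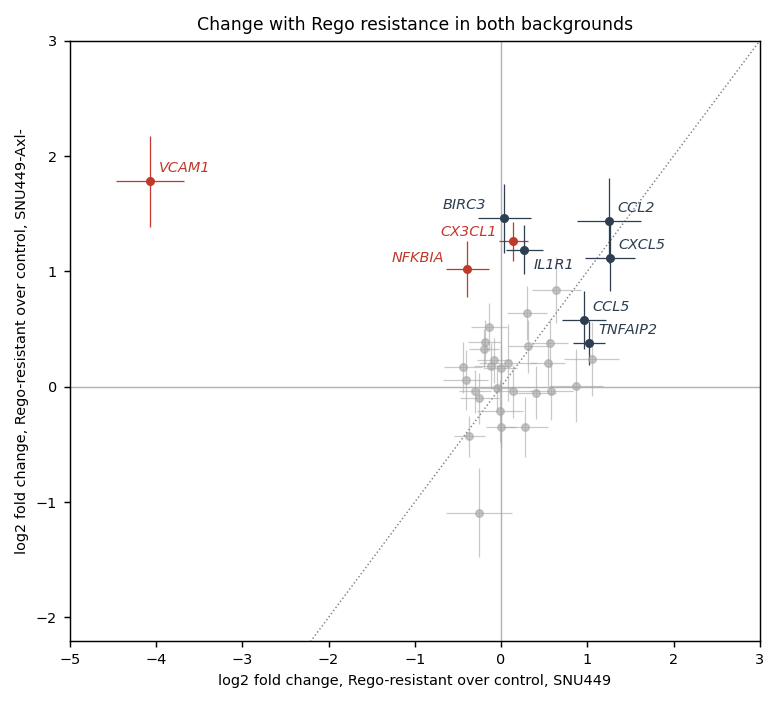
Log2 fold change of resistant over control cells in SNU449 (x axis) and SNU449-Axl- (y axis) for the 36 members, with SE bars. Members called in the interaction are red, others called in either background are dark, and the dotted line marks equal change. VCAM1 lies at -4.07 and 1.78, far from the line, whereas CXCL5 and CCL2 lie near it. The change of CXCL5 in SNU449 starts from almost no reads and is understated, so its place does not show equal change.

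Loss of Axl in control cells was called for 5 of 36 members (13.9%), 4 higher and 1 lower, where 7.45% of all genes were called, with a median log2 fold change of 0.21. Loss of Axl in resistant cells was called for 7 (19.4%), all higher, where 4.37% of all genes were called, with a median of 0.34.

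IL18, an interleukin-1 family cytokine that is made as an inactive precursor, was higher in SNU449-Axl- than in SNU449 whether the cells were resistant or not. Its values were 105, 101 and 118 in control SNU449 and 107, 101 and 97 in resistant SNU449. In the SNU449-Axl- groups they were 362, 287 and 277 in control and 298, 411 and 380 in resistant libraries. No library of 1 background reached the range of the other, while control and resistant cells of a background overlapped. The log2 fold change with loss of Axl was 1.50 in control cells (SE 0.193, limma adjusted p = 9.58e-05) and 1.81 in resistant cells (SE 0.193, limma adjusted p = 2.11e-05), and both calls held in every alternative.

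Other members of the interleukin-1 group differed less. IL1B, a pro-inflammatory cytokine, was higher after loss of Axl in resistant cells (log2 fold change 0.83, SE 0.197, limma adjusted p = 0.0211), and its change of 0.54 in control cells was not called. The call was lost without replicate 1 or 3 of resistant SNU449 or replicate 1 or 2 of resistant SNU449-Axl- (0.63 to 0.93). IL1R1, the signalling receptor of interleukin-1, had values of 35, 26 and 37 in control and 61, 98 and 71 in resistant SNU449-Axl- cells. In SNU449 they were 46, 41 and 46 in control and 58, 55 and 48 in resistant libraries. Neither pair overlapped, and only the SNU449-Axl- change was called (1.19, SE 0.212, limma adjusted p = 0.00301), while that in SNU449 was 0.27. The difference between them was not called (interaction 0.93, limma adjusted p = 0.079). The mean normalized count of IL1R1 solved for control SNU449-Axl- (below) was 7.24, a low level. Its rise there can be understated, so this interaction cannot show that the changes were equal.

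The authors' mean normalized counts of the 6 pairs of groups were solved for 1 mean per group, as a level with no error over libraries. For IL18 (chr11:112143253-112164096) the solved means were 90.4 and 60.7 in control and resistant SNU449 and 302 and 386 in control and resistant SNU449-Axl-. For VCAM1 (chr1:100719742-100739045) they were 1150, 13.1, 22.3 and 135 in the same order, with a largest misfit of 6.29%. CXCL5 (chr4:73995642-73998677) had 0.161, 23.4, 31.6 and 125, and BIRC3 (chr11:102317450-102339403) had 334, 301, 364 and 930. As in the library values, control SNU449 was highest for VCAM1 and lowest for CXCL5, and resistant SNU449-Axl- was highest for BIRC3 and CXCL5. Gene positions are those of the deposited tables (GRCh38).

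The interleukin-6 group held no called member. For IL6, LIF, IL6ST (gp130, the shared signalling receptor) and IL11, log2 fold changes lay between -1.09 and 0.49 over the 4 comparisons. The lowest was that of IL11 with resistance in SNU449-Axl- cells (-1.09, SE 0.383, limma adjusted p = 0.121), whose groups did not overlap. In the table of that pair of groups, with the replicate block, IL11 was called (-0.70, limma adjusted p = 0.00631). CSF1, the macrophage growth factor, and IL32 were not called either, with log2 fold changes between -0.58 and 0.87. With loss of Axl in control cells, CSF1 had a log2 fold change of 0.82 that narrowly missed the threshold (SE 0.249, limma adjusted p = 0.0513).

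The genes of the NF-kB subunits themselves, NFKB1, NFKB2, REL, RELA and RELB, were not called in any comparison or in the interaction. Their log2 fold changes in the 4 comparisons lay between -0.44 (REL, resistance in SNU449) and 0.42 (REL, loss of Axl in resistant cells). RELA, which encodes the p65 subunit, varied least, with changes of -0.14 to -0.01. Transcript levels do not show whether the proteins were in the nucleus.

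Among inhibitors and feedback regulators, NFKBIA, which encodes IkB alpha and is itself a target of NF-kB, moved differently in the 2 backgrounds. Its values were 671, 792 and 876 in control and 508, 598 and 684 in resistant SNU449. In SNU449-Axl- cells they were 652, 336 and 442 in control and 886, 1237 and 744 in resistant libraries, without overlap. It rose with resistance in SNU449-Axl- (log2 fold change 1.02, SE 0.245, limma adjusted p = 0.0229), and its change in SNU449 was -0.39 (SE 0.245, limma adjusted p = 0.394). The interaction was 1.41 (SE 0.347, limma adjusted p = 0.0203). Its change of 0.66 with loss of Axl in resistant cells was not called (limma adjusted p = 0.148), but in the table of that pair, with the replicate block, it was (0.60, limma adjusted p = 0.0379). Both calls were lost without replicate 2 of either SNU449-Axl- group. The first was also lost without replicate 3 of control or replicate 1 of resistant SNU449-Axl- (0.72 to 1.07), and the second without replicate 2 of control or replicate 1 of resistant SNU449 (1.11 to 1.39).

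TNFAIP2, a gene induced by tumour necrosis factor, was called for resistance in SNU449 and not in SNU449-Axl-. It had values of 192, 153 and 144 in control and 301, 366 and 323 in resistant SNU449, and of 207, 229 and 253 in control and 303, 283 and 306 in resistant SNU449-Axl-. Neither pair overlapped. The log2 fold change was 1.02 in SNU449 (SE 0.187, limma adjusted p = 0.00186), a call that held in every alternative, and 0.38 in SNU449-Axl- (SE 0.187, limma adjusted p = 0.294). The difference was not called (interaction -0.64, limma adjusted p = 0.172). TNFAIP3 (A20), TNIP1, NFKBIB and NFKBIE, which restrain the pathway, were not called, with log2 fold changes between -0.37 and 0.57.

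BIRC3, which encodes the ubiquitin ligase cIAP2, was highest in resistant SNU449-Axl- cells. The libraries there held 799, 1120 and 657, against 504, 214 and 261 in control SNU449-Axl-, 345, 358 and 386 in resistant SNU449 and 234, 379 and 492 in control SNU449. The 3 resistant SNU449-Axl- values lay above the other 9. BIRC3 rose with resistance in SNU449-Axl- (log2 fold change 1.46, SE 0.302, limma adjusted p = 0.00883) and with loss of Axl in resistant cells (1.21, SE 0.302, limma adjusted p = 0.0283). The first call was lost without replicate 2 or 3 of control or replicate 2 of resistant SNU449-Axl- (1.12 to 1.31), and the second without any 1 of the resistant SNU449 libraries or without replicate 1 or 2 of resistant SNU449-Axl- (0.93 to 1.27). The interaction of 1.42 missed the threshold (SE 0.427, limma adjusted p = 0.0591). TRAF1, an adaptor of the same receptor complexes, and the effectors C3 and SOD2 were not called, with log2 fold changes between -0.62 and 0.84. In the table of the single pair with the replicate block, SOD2, the mitochondrial superoxide dismutase, was called for resistance in SNU449-Axl- (0.66, limma adjusted p = 0.0399).

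In total, 3 of 36 members (8.33%) were called in the interaction, where 5.87% of all genes were called, and these were VCAM1, NFKBIA and CX3CL1, all in the direction of a higher Rego effect in SNU449-Axl-. The counts depended on single libraries. Resistance in SNU449 was called for 2 members without replicate 1 of control SNU449, and for 3 without replicate 2 of control or replicate 1 or 3 of resistant SNU449. Resistance in SNU449-Axl- was called for 2 without replicate 2 or 3 of control or replicate 2 of resistant SNU449-Axl-, for 3 without replicate 1 of the resistant libraries, and for 8 without replicate 1 of control SNU449-Axl-, the library with the high members. Loss of Axl in control cells was called for 2 without replicate 1 of control SNU449. Loss of Axl in resistant cells was called for 2 without replicate 1 of resistant SNU449 or replicate 2 of resistant SNU449-Axl-, for 3 without replicate 1 of resistant SNU449-Axl-, and for 4 without replicate 2 or 3 of resistant SNU449.

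Other genes of the pathway were counted from 3 lists. Of 32 genes of NF-kB signal transduction (kinases, adaptors and ubiquitin ligases), at most 1 (3.12%) was called in any comparison, where 7.81%, 4.35%, 7.45% and 4.37% of all genes were called for resistance in SNU449 and SNU449-Axl- and for loss of Axl in control and resistant cells. Of 20 receptors, 1 rose and 3 fell with resistance in SNU449 and 4 rose and 1 fell in SNU449-Axl-, while 1 rose and 5 fell with loss of Axl in control cells and 1 fell in resistant cells. These are 20%, 25%, 30% and 5% of the receptors, beside the same shares of all genes. Among them, TLR4, the receptor of bacterial lipopolysaccharide, had a log2 fold change of -1.95 with loss of Axl in control cells (SE 0.187, limma adjusted p = 3.16e-06) and of 1.0 with resistance in SNU449-Axl-. Its mean level of 4.48 on the log2 scale in control SNU449-Axl- stands for almost no reads, which limits the size of both changes. TLR3, the receptor of double-stranded RNA, fell by 1.09 on the log2 scale with loss of Axl in control cells. CXCR4, the receptor of CXCL12, rose by 2.00 with resistance in SNU449 (SE 0.209, limma adjusted p = 7.08e-06), with an interaction of -1.15. Its mean levels of 4.63 and 4.86 on the log2 scale in control SNU449 and SNU449-Axl- stand for almost no reads, which limits these values too. TNFRSF11B, which encodes the decoy receptor osteoprotegerin, fell with resistance in SNU449 (limma adjusted p = 1.35e-05) and with loss of Axl in control cells (limma adjusted p = 1.8e-05). Its mean level was 6.12 on the log2 scale in control SNU449 and 4.48, the level of almost no reads, in the other 3 groups, so that both falls can be larger than these values show. TNFRSF21, a death receptor, fell by 2.24 on the log2 scale with resistance in SNU449. In the interaction, 5 of the 20 receptors were called with a positive value and 1, CXCR4, with a negative one. This is 30% of the receptors, where 5.87% of all genes were called. The largest were TLR3 (1.76), TNFRSF11B (1.64) and TLR4 (1.6), and levels of almost no reads limit those of TNFRSF11B and TLR4. TLR3 was also near that level in control SNU449-Axl- (mean 5.0 on the log2 scale). For TNFRSF11B no fall could be seen in SNU449-Axl-, where both groups had almost no reads. Its interaction therefore does not show that the Rego effect differed between the backgrounds.

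Of 33 other NF-kB target genes, 3 rose and 6 fell with resistance in SNU449, and 1 rose and 2 fell in SNU449-Axl-. With loss of Axl, 2 rose and 2 fell in control cells and 4 rose and 2 fell in resistant cells. These are 27.3%, 9.09%, 12.1% and 18.2% of the list, against 7.81%, 4.35%, 7.45% and 4.37% of all genes. IL15, a cytokine for T cells and natural killer cells, had a log2 fold change of -1.45 with loss of Axl in control cells and of 1.09 with resistance in SNU449-Axl-, with an interaction of 1.89 (SE 0.261, limma adjusted p = 0.000273). The mean level of IL15 in control SNU449-Axl-, 4.68 on the log2 scale, stands for almost no reads and limits these sizes. G0S2, an inhibitor of lipolysis, went the other way than IL15, with 1.76 for loss of Axl in control cells and -1.29 in resistant cells, 1.39 for resistance in SNU449 and -1.65 in SNU449-Axl-, and an interaction of -3.05 (SE 0.432, limma adjusted p = 0.000359). TNFAIP6, a hyaluronan-binding protein, rose with loss of Axl by 1.20 in control and by 1.58 in resistant cells, and fell with resistance in SNU449 by 1.14 on the log2 scale (limma adjusted p = 0.0442). In resistant cells CEBPD, a transcription factor, rose by 1.56 with loss of Axl and SQSTM1, the autophagy adaptor p62, by 1.06. With resistance in SNU449, GADD45B, a stress-response gene, rose by 1.12, whereas KYNU, an enzyme of tryptophan breakdown, fell by 1.39 and SDC4, a cell-surface proteoglycan, by 1.05 on the log2 scale. IRF1, an interferon-regulated transcription factor, fell by 1.04 on the log2 scale with loss of Axl in control cells.

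Markers moved with some of these groups. FGB, a fibrinogen chain made by hepatocytes, had a log2 fold change of 3.44 with loss of Axl in resistant cells and of 2.49 with resistance in SNU449-Axl-, and KRT8 of 1.58 with loss of Axl in resistant cells. The summed level of the 3 listed hepatocyte markers was 7.96 to 9.24 on the log2 scale in resistant SNU449-Axl- libraries and 6.07 to 7.06 in the other groups. This difference was that of FGB, with solved means of 33.8 in control and 390 in resistant SNU449-Axl-, and not of the list. AFP had solved means of 9.85 and 7.36 in the same groups, and APOA1 had a mean normalized count of 1.14. The summed level of the leukocyte markers lay between 7.03 and 7.28 in all 12 libraries. The part of these genes in the changes of the members was not tested.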

How the data were processed

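QuantSeq 3' libraries from 4 groups of 3 were analysed. The authors trimmed reads with cutadapt 4.0, aligned them with STAR 2.5.3a to GRCh38 with GENCODE annotation and spike-ins, counted them per gene, dropped low genes and tested pairs of groups in DESeq2, adjusting for when the libraries were prepared. The library values that they deposited were read as scores, that is, variance-stabilized levels, corrected for preparation date with limma, taken back from log2 and rounded, with a minimum of 12. The mean normalized count (signal) that they deposited per table was used only as a level. Its sums were 4.16e+06 to 4.92e+06, and the depth per library is unknown. Their columns of log2 fold changes, standard errors, statistics, p-values and adjusted p-values were not used.

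The table of 12 libraries that compares the Axl backgrounds entered linear models on log2(value + 1) over all 4 groups with the replicate number as a block (R 4.3.3, limma 3.58.1, moderated with a variance trend), unfiltered and without the 32 spike-ins. The mean deviations of the libraries with 1 number had a median size of 0.00126 to 0.00128, against 0.124 for a single library, as removal along the number leaves it, and same-numbered libraries correlated at -0.542 to 0.0263 (18 pairs). Tested on simulated data for resistance in SNU449 (15601 genes, 200 changed by 1 on the log2 scale), the block recovered 120 with 3 false calls, and the fit without it 160 with 47. In the simulated data an effect of the replicate number was added and removed again before the fit, so fewer false calls with the block were built in. The simulation cannot show that the deposited values were made this way.

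The members and lists were chosen with earlier results of these data known. Library values are given for members called in any term with an absolute change of 1 or more on the log2 scale, and for ICAM1, added after its values were seen. From each pathway list, at most 3 called genes per direction and comparison of that size were named. Alternatives were another pseudocount, filter, scaling, table, variance trend and block, and leaving out each library. The second table of 12 libraries was chosen after seeing the data.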

Additional observations from a re-analysis of the deposited data

Results flagged for a closer look

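The effect of Rego resistance differed between SNU449 and SNU449-Axl- for 3 members by the interaction term of limma. VCAM1 had an interaction of 5.85 on the log2 scale (limma adjusted p = 8.82e-06), and all 3 resistant libraries lay below the controls in SNU449 and above them in SNU449-Axl-. NFKBIA had an interaction of 1.41 (limma adjusted p = 0.0203), with groups that overlapped in SNU449 and did not in SNU449-Axl-. CX3CL1 had an interaction of 1.12 (limma adjusted p = 0.00885), with all 3 resistant SNU449-Axl- libraries above the other 9. It passed the authors' filter on low genes through these same libraries, so this interaction is only a description.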

How the results depend on the processing

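Of the 27 calls of members, 10 held in every alternative in which the gene was tested, and no call changed direction. For CX3CL1, with 3 of these 10, this leaves out the filter on a mean normalized count of at least 10, which removed it. The counts of members called, in the order resistance in SNU449, resistance in SNU449-Axl-, loss of Axl in control cells, loss of Axl in resistant cells and interaction, were 5, 7, 5, 7 and 3. With no replicate block in the fit they were 8, 7, 10, 7 and 5, and the numbers of all genes called were 2175, 1552, 2182, 1503 and 1826 in place of 1219, 678, 1163, 682 and 916. In the tables of single pairs without the block, the first 4 comparisons gave 12, 15, 11 and 18 members (2947, 3566, 3750 and 4024 genes), and with the block 4, 9, 3 and 8 (603, 818, 603 and 1160 genes). Centring on the spike-ins gave 6, 7, 9, 16 and 4 members. It moved the median of all genes to 0.0476, 0.144, 0.206, 0.306 and 0.101, and the genes called to 612 up and 380 down in place of 673 and 546, 585 and 110 in place of 396 and 282, 1257 and 231 in place of 628 and 535, 1731 and 68 in place of 381 and 301, and 460 and 265 in place of 455 and 461. Leaving out 1 library gave 2 to 7, 2 to 9, 2 to 5, 2 to 7 and 2 to 4 members, and 740 to 1299, 205 to 891, 540 to 1275, 219 to 826 and 523 to 922 genes. The cause of these differences was not tested, except that fewer libraries enter when 1 is left out. Depth per library is unknown, and a fall cannot be seen for members near the lowest values, such as CXCL6, CXCL8, CCL20 and CX3CL1.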
